A study of Mus musculus with 12 samples.

Results

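The 4T1 line is a mammary carcinoma line derived from a BALB/c mouse, and its unmodified cells were profiled by RNA sequencing in 3 libraries labelled WT. The labels give these libraries the genotype WT and the treatment culture, with growth in DMEM containing 10% fetal bovine serum, and they name no inhibitor, vector or edited gene. The libraries were chosen by that label alone and are 3 of the 12 samples described, in 4 groups of 3; no other group enters the values below. The line is a single established culture, and the labels do not say whether WT 1, WT 2 and WT 3 came from separate cultures, so the spread between them may be technical. The question taken here is which lineage, receptor, secreted, metabolic and transcription factor genes these cells express strongly and which they lack.

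Mammary epithelium has an inner luminal layer, marked by simple keratins and by hormone receptors in part of its cells, and an outer basal layer, marked by Krt5, Krt14 and Trp63. Carcinoma cells can hold these programs only in part and can add mesenchymal genes such as vimentin and fibronectin, a change known as epithelial to mesenchymal transition. The 4T1 line is used widely as a model of metastatic breast cancer and is known for secreting factors that act on bone marrow and myeloid cells.

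Levels are given as FPKM, read fragments per kilobase of gene scaled by the size of the library, which allows genes of different length to be compared. Values are printed in the order WT 1, WT 2 and WT 3, and a mean is followed by its SD over the 3 libraries (n = 3). The library totals recovered from the values were 21954133, 20297490 and 21447566 reads. The median gene with a mean of 1 FPKM or more had a coefficient of variation of 4.36%. Among the largest differences between the libraries were transcripts of other tissues. WT 3 stood apart by odorant-binding and related secretory protein genes and WT 2 by muscle and red cell genes. Of these genes, those named below are given with all 3 values. Of 30803 gene identifiers, 11768 (38.2%) were at 1 FPKM or more in each library, which is the meaning of "expressed" below, and 374 (1.21%) were at 100 or more in each. Among the 17966 protein-coding genes with values, 10044 (55.9%) were expressed, 681 (3.79%) were at 0 in each library, and the median level was 2.18 FPKM. Genes without values do not enter these shares, so 3.79% is not the undetected share of every annotated protein-coding gene. Below, protein-coding genes are those with values. These shares are the background for every list below. A ratio between 2 genes is the mean of the ratios within each library with its SD, the pairs were chosen after their values were seen, and the first gene was the higher in 3 of 3 libraries for every ratio printed. The 48 lists name 1711 distinct genes, of which 1630 had values. Of those with values, 849 (52.1%) were expressed. The share was highest for metabolic genes, at 73.1%, and lowest for markers of other cell types and tissues, at 15.3%. Intermediate shares were found for lineage genes (58.1%), secreted factors (51.3%), transcription factors (50.8%) and receptors (44.4%).

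The most abundant transcripts came from the mitochondrial genome. The cytochrome c oxidase subunit gene mt-Co1 was at 19297, 19085 and 19612 FPKM and ranked 1, followed by mt-Cytb at 16398 ± 159, mt-Nd1 at 14242 ± 228 and mt-Nd2 at 6195 ± 166. The gene mt-Co2 was the least even of the 10 highest, with 4208, 3663 and 2209 FPKM, highest in WT 1 and lowest in WT 3. The other mitochondrial genes among the 10 highest were mt-Nd4, at 3137 ± 82.7, and mt-Nd5, at 2409 ± 111, and the ribosomal protein gene Rplp1 stood at rank 10 with 2393 ± 87.9. Together the 10 highest genes held 22.7% ± 0.401 of the summed FPKM.

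The highest nuclear transcript encoded galectin-1, a secreted carbohydrate-binding protein. Lgals1 was at 5431, 5563 and 6180 FPKM, rank 5 among all genes, and was highest in WT 3. The translation elongation factor Eef1a1 followed at 2613 ± 111 FPKM, and Eef2, which moves the ribosome along the message, was at 1084 ± 31.9. The cytokine and tautomerase gene Mif was at 1144, 1162 and 1206 FPKM in the 3 libraries, which differed little. Calcium-binding S100 proteins were near the top, with S100a6 at 998 ± 99.0 FPKM and S100a11 at 776 ± 20.9. Wfdc2, a secreted whey-acidic-type protein known from ovarian and other carcinomas as HE4, was at 914, 813 and 919 FPKM, lowest in WT 2. Mesothelin, a surface glycoprotein encoded by Msln, was at 676, 666 and 660.1 FPKM, with all 3 libraries close together.

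Leaving out ribosomal protein genes, predicted genes, Rik clones and pseudogenes, the 20 highest nuclear genes also held adhesion and protein folding genes. The integrin chains Itga3 and Itgb1, which pair as a laminin receptor, were at 725 ± 16.8 and 616 ± 13.8 FPKM. Basigin (Bsg), a partner of lactate transporters at the membrane, was at 719 ± 14.3. The endoplasmic reticulum chaperones Hspa5, Calr and P4hb were at 705 ± 6.91, 610.4 ± 7.12 and 580.4 ± 8.69, and the cytosolic chaperone Hsp90ab1 was at 959 ± 19.7. The rest of those 20 genes were the cytoskeletal actin Actb (736 ± 7.67), the nucleolar protein Npm1 (705 ± 2.74), the MHC class I light chain B2m (677 ± 23.1), the matricellular protein Ccn1 (675 ± 17.9) and prothymosin Ptma (636 ± 17.0). Eef1a1 and Mif share much of their message with copies elsewhere: 60.6% of the 50-base words of an Eef1a1 transcript and 76.4% of those of a Mif transcript also stood in annotated transcripts of other genes (21 and 7 genes), so their values are uncertain where counting could divide reads among copies. The share was 41.1% for S100a11, 40.9% for Npm1 and 27.8% for Ptma. For Lgals1, Wfdc2, Itga3 and Ccn1 it was 0%.

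**Figure D1:**
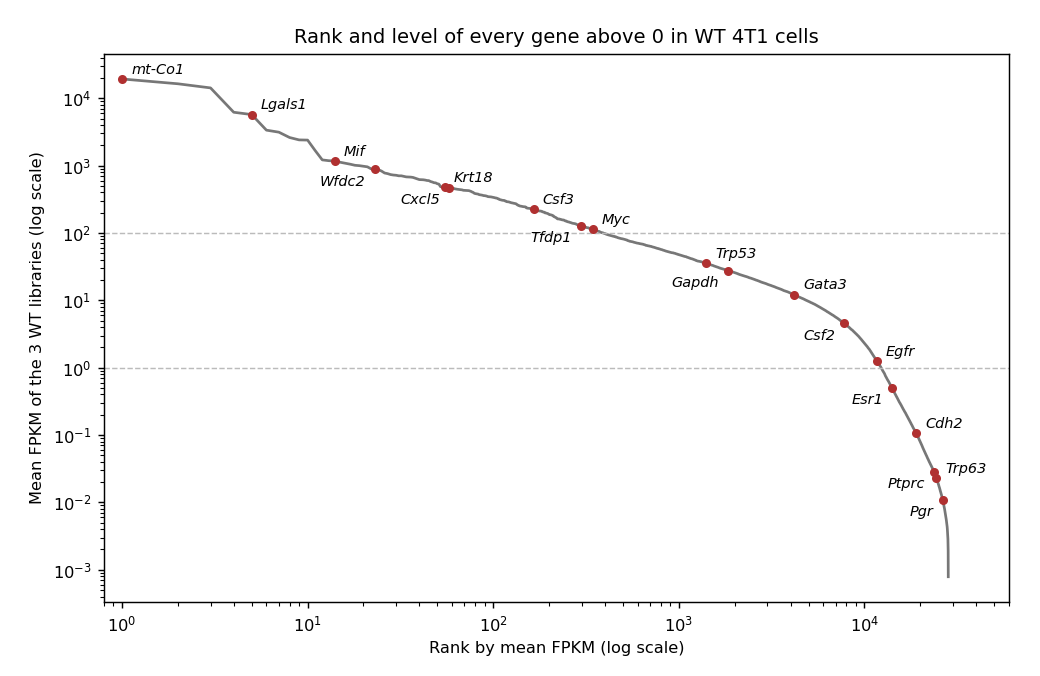
Mean FPKM of the 3 WT libraries against rank, both on log axes, for every gene above 0; red points mark named genes and dashed lines mark 1 and 100 FPKM. Levels run from 19332 FPKM for mt-Co1 to under 0.1 for Ptprc, Trp63 and Pgr, and Krt18 and Cxcl5 lie above the 100 FPKM line.

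The cells carried a strong simple epithelial program. Of the 40 simple epithelial and luminal genes listed, 37 (92.5%) were expressed and 8 were at 100 FPKM or more in each library, beside 55.9% and 1.80% of protein-coding genes, and the list's median was 19.7 FPKM. The keratin pair of simple epithelia led it, with Krt18 at 458, 468 and 514 FPKM. Krt8 was at 343, 355 and 377 FPKM, and Krt18 exceeded it in 3 of 3 libraries, at a ratio of 1.34 ± 0.0227. Both keratins were highest in WT 3, and the ranges of the 2 genes did not overlap; 29.7% of the 50-base words of Krt8 and 0.720% of those of Krt18 were shared with other genes.

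Junction and adhesion genes of epithelium differed widely in level, and Cldn4, Cldn3, Epcam and Cdh1 were above 100 FPKM in each library. Others were lower. Cldn3 exceeded the related Cldn7, at a ratio of 3.61 ± 0.125, and Cdh1 exceeded the cadherin gene Cdh3, at a ratio of 119 ± 14.1. The desmosomal gene Dsp, named after its values were seen, had a mean of 22.7 FPKM. The tight junction protein genes Cldn4 and Cldn3 were at 384 ± 5.71 and 321 ± 6.31 FPKM. Epcam, the epithelial adhesion molecule, was at 365, 346 and 350.3 FPKM, slightly higher in WT 1. Cdh1, which encodes E-cadherin, was at 230.5, 220.5 and 219.6 FPKM, and no library stood apart. The ranges of Krt8 and Epcam overlapped, so their order is not resolved by these libraries. The epithelial splicing regulators Esrp2 and Esrp1, named after their values were seen, were at 26.0 ± 0.993 and 17.2 ± 0.551 FPKM. The only member under 0.1 FPKM in each library was Elf5, a transcription factor of the milk-producing lineage, at 0.00775, 0 and 0.0159 FPKM, which is 3 reads over the 3 libraries.

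Hormone receptor and milk genes were mostly low or near 0. Only 7 of 21 members with values (33.3%) were expressed, and the median was 0.495 FPKM; 4 further members were not analysed here. The estrogen receptor gene Esr1 was at 0.493, 0.487 and 0.505 FPKM, low and even. The progesterone receptor gene Pgr was at 0.0160, 0.0115 and 0.00546 FPKM (6 reads in all) and the prolactin receptor gene Prlr at 0.00891, 0.00642 and 0.00304 (6 reads). The milk protein gene Wap was at 0.0151 ± 0.0261 FPKM and Tbx3, a T-box factor of mammary development, at 0.00229 ± 0.00397. The members with the highest levels were Mfge8, which encodes a milk fat globule protein that binds phosphatidylserine, at 95.5 ± 1.24 FPKM, the EGF family ligand Areg at 64.2 ± 1.81, the secretory cell regulator Xbp1 at 16.3 ± 0.791, and Gata3. Gata3, a luminal transcription factor, was at 12.5, 11.99 and 11.8 FPKM in the 3 libraries, close together.

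Basal markers ranged from high levels of a laminin chain and the hemidesmosome integrins, through a moderate level of Krt14, to Trp63 near 0. In all, 10 of 31 members (32.3%) were expressed, with a median of 0.229 FPKM. Lamb3, a chain of a basement membrane laminin, was at 97.7, 98.2 and 96.0 FPKM. The hemidesmosome integrins Itgb4 and Itga6 were at 51.4 ± 1.355 and 40.6 ± 1.66. Krt14 was at 10.5, 14.8 and 12.9 FPKM, lowest in WT 1, and Krt8 exceeded it, at a ratio of 28.6 ± 4.43. Trp63, the master regulator of basal epithelium, was at 0.0163, 0.0352 and 0.0167 FPKM, which is 12 reads over the 3 libraries. Snai2, the desmosomal gene Dsc3 and the smooth muscle myosin gene Myh11 were also under 0.1 FPKM in each library, at 0.0554, 0.0241 and 0.0502.

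Of Krt5, Krt14 and Trp63, Krt5 differed most between libraries. It was at 0, 3.05 and 0.233 FPKM, so its mean of 1.09 came almost wholly from WT 2 and was 0.117 without that library. WT 2 was also the library with the highest summed muscle, erythroid and neutrophil markers, given further on. Of the neutrophil sum, 71.4% was Ltf, a gene that also stands in the milk list. The part of these markers in the Krt5 value was not tested. Several genes of squamous and airway epithelium, named after their values were seen, were also highest in WT 2. The keratin gene Krt13 was at 0.0500, 2.87 and 0.333 FPKM, the surface protein gene Ly6d at 0, 3.24 and 0, the airway secretory gene Bpifa1 at 0.0590, 4.43 and 0.332 and the club cell enzyme gene Cyp2f2 at 0.0225, 3.36 and 0.760.

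The mesenchymal list was expressed in part. Of 33 members, 18 (54.5%) were expressed, close to the 55.9% of all protein-coding genes, and 5 were at 100 FPKM or more in each library. After Lgals1, the highest was Fn1, the matrix protein fibronectin, at 427, 445 and 415 FPKM. The receptor kinase gene Axl was at 313, 317 and 306 FPKM and the intermediate filament gene Vim at 234, 225 and 239.9. Each of these was even over the libraries. Fn1 exceeded Vim, at a ratio of 1.84 ± 0.125 and Epcam exceeded Vim, at a ratio of 1.52 ± 0.0513, both in 3 of 3 libraries. Other matrix genes were lower than Fn1 and differed widely. Sparc, a secreted matrix protein, had a mean of 58.8 FPKM. Postn, another such protein, was at 3.07 ± 0.327 FPKM, which was the median of the mesenchymal list. The fibrillar collagen gene Col1a2 was at 0.150, 1.72 and 1.85 FPKM, lowest in WT 1. Sparc, Postn and Col1a2 were named after their values were seen.

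Among the transition factors, Snai1, a zinc finger repressor of Cdh1, was at 7.67, 7.93 and 6.99 FPKM. Zeb1, a repressor of the same gene, was at 0.173, 0.106 and 0.168 FPKM (98 reads), and Snai2 at 0.0225, 0.0975 and 0.0461 (7 reads). Twist1, named after its values were seen, was at 8.95, 8.78 and 9.37 FPKM, and Twist2, Prrx1 and the fibroblast protease Fap were at 0.0103, 0.0444 and 0.0700. Cdh2, the N-cadherin of mesenchymal and neural cells, was at 0.107, 0.122 and 0.0925 FPKM, so Cdh1 exceeded it in every one of the 3 libraries, at a ratio of 2109 ± 287, with 55 reads behind the Cdh2 values.

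**Figure D2:**
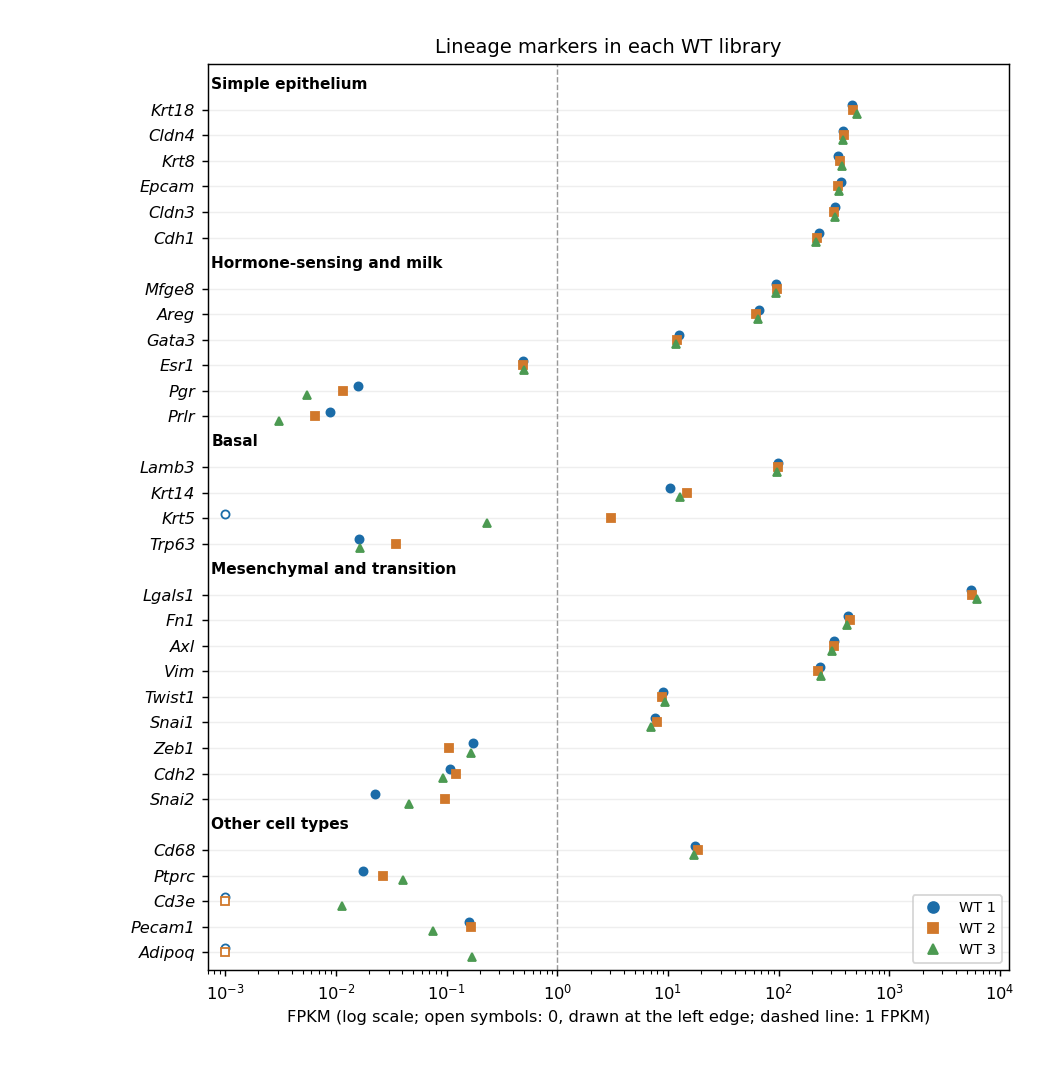
FPKM of lineage markers on a log axis in WT 1 (circles), WT 2 (squares) and WT 3 (triangles); open symbols at the left edge stand for 0. The 6 simple epithelial markers lie above 100 FPKM, whereas Pgr, Prlr, Trp63 and Ptprc lie below 0.1, and Krt5 is spread from 0 to 3.05 FPKM.

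Promoter sequences are shown for markers at opposite ends of this range, because CpG content differed widely between the promoters of expressed and undetected genes. The windows run from 250 bases before to 50 after the transcript start, 5′ to 3′ on the gene's strand, as given by RefSeq for GRCm38.p6 (first listed start of each gene), and capitals mark CpG dinucleotides. Krt18 (chr15:102027966-102028265, + strand) had 17 CpGs, Krt8 (chr15:102004293-102004592, - strand) had 6, and Epcam (chr17:87635729-87636028, + strand) had 11. The leukocyte marker Ptprc (chr1:138175256-138175555, - strand) had 4 and the adipocyte hormone gene Adipoq (chr16:23146286-23146585, + strand) had 0.
Krt18: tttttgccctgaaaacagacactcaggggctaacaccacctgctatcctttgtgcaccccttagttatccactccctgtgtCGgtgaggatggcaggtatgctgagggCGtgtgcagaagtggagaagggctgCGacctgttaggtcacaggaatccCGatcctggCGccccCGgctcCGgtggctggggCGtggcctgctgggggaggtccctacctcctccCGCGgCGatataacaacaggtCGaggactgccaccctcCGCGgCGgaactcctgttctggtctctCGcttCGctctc
Krt8: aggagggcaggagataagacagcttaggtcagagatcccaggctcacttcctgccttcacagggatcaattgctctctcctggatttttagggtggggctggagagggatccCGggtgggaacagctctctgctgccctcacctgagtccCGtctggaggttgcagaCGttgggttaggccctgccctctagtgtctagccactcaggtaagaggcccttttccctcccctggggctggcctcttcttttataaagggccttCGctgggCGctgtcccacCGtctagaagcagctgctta
Epcam: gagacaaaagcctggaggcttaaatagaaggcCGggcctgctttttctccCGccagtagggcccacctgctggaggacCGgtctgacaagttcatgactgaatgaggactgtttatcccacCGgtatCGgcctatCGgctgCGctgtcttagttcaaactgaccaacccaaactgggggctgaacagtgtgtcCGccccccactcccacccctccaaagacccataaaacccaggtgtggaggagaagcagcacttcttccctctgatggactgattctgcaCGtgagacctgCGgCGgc
Ptprc: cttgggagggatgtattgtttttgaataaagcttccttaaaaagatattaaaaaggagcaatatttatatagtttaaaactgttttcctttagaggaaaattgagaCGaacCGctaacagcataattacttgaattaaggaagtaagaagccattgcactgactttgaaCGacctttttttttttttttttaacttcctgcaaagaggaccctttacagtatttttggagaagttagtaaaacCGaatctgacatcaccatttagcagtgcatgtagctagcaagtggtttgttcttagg
Adipoq: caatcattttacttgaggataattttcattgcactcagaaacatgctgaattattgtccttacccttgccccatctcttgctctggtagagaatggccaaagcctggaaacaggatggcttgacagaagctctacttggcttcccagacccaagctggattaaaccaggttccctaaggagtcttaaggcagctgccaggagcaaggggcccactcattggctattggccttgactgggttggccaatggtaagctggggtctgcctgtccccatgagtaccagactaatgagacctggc

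The observed over expected CpG ratio, which divides the number of CpGs by that expected from the C and G content, was 0.603 for Krt18 and 0.454 for Epcam. Krt8 is an abundant gene with a ratio of only 0.238, below the 0.481 of Ptprc, so the 2 keratins of one filament differ in this feature. Over the 8040 expressed protein-coding genes with a window, the median ratio was 0.795 (quartiles 0.634 and 0.931). Over the 504 genes at 0 in each library it was 0.190 (quartiles 0.0934 and 0.372). A ratio of 0.6 or more was found for 78.4% of expressed genes, for 12.1% of genes at 0, and for 36.5% of all 27025 promoters of the table with 1 per gene, noncoding genes included. Over all 13761 protein-coding genes with values and a window, the share was 58.8%. The letters TATAAA, searched on both strands of the window, stood in 6.17% of expressed genes, 11.1% of genes at 100 FPKM or more, 21.6% of genes at 0, and 14.2% of all promoters. Krt8 held these letters on the gene's strand as printed, and Ptprc only on the opposite strand. Krt18, Epcam and Adipoq did not hold them. The letters CCGGAAG, a core of ETS factor sites, stood in 20.5% of expressed genes, 3.17% of genes at 0 and 9.12% of all promoters. For TGANTCA, the AP-1 core, the shares were 4.56%, 9.52% and 7.93%. Over all protein-coding genes with values, the shares were 9.51% for TATAAA, 14.4% for CCGGAAG and 6.08% for TGANTCA. These are descriptions across genes, which are not replicates, and CCGGAAG contains a CpG of its own.

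Most markers of blood, vessel and fat cells were low, unlike the epithelial markers described above. In bulk RNA, fewer cells of a type and less RNA per cell cannot be told apart. Ptprc, the pan-leukocyte phosphatase CD45, was at 0.0174, 0.0269 and 0.0407 FPKM (33 reads over 3 libraries), and Adgre1, Itgam and Itgax, markers of macrophages and myeloid cells, were at 0.0392, 0.0189 and 0.0484. The leukocyte list summed to 29.7 to 33.3 FPKM, of which Cd68, a lysosomal protein also made outside leukocytes, held 57.3%; Cd14 was at 4.59 ± 0.227, Csf1r at 1.48 ± 0.0684 and Ctss at 1.37 ± 0.185. Of the lymphocyte markers, 5 of 18 were at 0 in each library. The CD3 subunit genes of the T-cell receptor complex, Cd3e and Cd3g, were at 0.00381 and 0.00951, and Cd4 was at 0.00793. Cd3d was at 0, a level that 3 reads over the 3 libraries would limit to 0.0259 FPKM. The highest of that list was Trac at 1.36, 1.05 and 1.496 FPKM, followed by Lck at 0.549.

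Vessel and fat markers were also near 0. Pecam1, an endothelial junction protein, was at 0.161, 0.166 and 0.0749 FPKM, and Kdr, Tek, Vwf and Emcn were at 0.0250, 0.0399, 0.0333 and 0.0293. Flt1, a VEGF receptor, was the exception at 5.61, 5.96 and 5.67 FPKM and made up 73.0% of the summed endothelial list. Adipoq was at 0, 0 and 0.169 FPKM, seen in WT 3 only, and the fat droplet genes Plin1 and Cidec and the adipocyte regulator Pparg were at 0.00688, 0.0247 and 0.0319. None of the 11 neutrophil and 9 adipocyte markers with values was at 1 FPKM or more in each library. The neutrophil granule genes Mpo, Elane and Ngp were at 0.0144, 0.0167 and 0.0383, and Ly6g was at 0, which limits it to 0.0500 FPKM.

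Transcripts of several differentiated tissues were found at levels that differed between libraries. The list of odorant-binding, urinary and lacrimal secretory proteins summed to 2.53, 18.2 and 402 FPKM in WT 1, WT 2 and WT 3, so that nearly all of it was in WT 3. Obp1a, an odorant-binding lipocalin of nasal glands, was at 1.02, 1.24 and 132 FPKM, Obp1b at 0.229, 0.618 and 59.1 and Obp2a at 0.0612, 1.13 and 41.9. The kin genes Obp2b, Mup4, Lcn11 and Bpifb9b were highest in WT 3 too. Obp2b was at 0.187, 1.68 and 40.8 FPKM and Mup4 at 0.0494, 0.588 and 39.7. Lcn11 was at 0.279, 0.605 and 21.4 and Bpifb9b at 0.353, 0.167 and 25.2. Of the 15 genes with the largest ratio between the highest and the lowest library among 7432 genes with a mean of 5 FPKM or more, all but the globin genes Hba-a1 and Hbb-bs were highest in WT 3; they include the predicted genes 5430402E10Rik (0.742, 1.85 and 174), Gm14744 (0.455, 1.66 and 106), Gm14743 (0.0600, 0.584 and 20.3) and Gm6619 (0.0749, 0.162 and 16.5). The immunoglobulin gene Igkc (0.514, 1.67 and 13.8) and Gm17720 (1.69, 3.65 and 13.8) also peaked in WT 3.

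Muscle and red cell transcripts were highest in WT 2. The liver and muscle list summed to 24.5, 81.8 and 27.1 FPKM, led by skeletal actin Acta1 at 9.25, 44.8 and 12.7. Ckm, the muscle creatine kinase, was at 1.91, 9.51 and 3.41 and myoglobin, Mb, at 0.550, 8.59 and 3.91, both highest in WT 2. Ttr, a thyroid hormone carrier of liver and choroid plexus, ran differently, at 9.76, 7.39 and 4.52, highest in WT 1. The defining liver gene Alb was at 0.00648 FPKM, with Apoa1 at 0.0630, Cyp2e1 at 0.0507 and the muscle regulator Myod1 at 0.00816.

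The erythroid and platelet list summed to 14.7, 47.5 and 10.0 FPKM. The globin gene Hbb-bs was at 4.21, 17.3 and 2.49 FPKM and Hba-a1 at 4.71, 13.8 and 1.78, again highest in WT 2, while Gata1, a regulator of red cells, was at 0 in each library (limit 0.0193 FPKM). Globin copies are near-identical, with 67.5% of the 50-base words of Hba-a1 shared, so their division is uncertain. The platelet chemokine gene Ppbp was at 2.48 ± 0.496 and the globin gene Hbb-bt at 0.778, 5.82 and 0.398. The neutrophil list summed to 1.06, 10.6 and 2.97 FPKM. Lactoferrin (Ltf), a member of the milk list too, held 71.4% of that sum. It was at 0.277, 8.83 and 1.351 FPKM and thus also highest in WT 2.

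Neural markers were detected at low levels in all 3 libraries. Their list summed to 24.2, 21.04 and 18.6 FPKM. Of its 12 members, 7 were expressed (58.3%), near the 55.9% of all protein-coding genes, and 2 were at 2 FPKM or more in each library. The astrocyte filament gene Gfap was at 5.45, 6.04 and 4.24 FPKM and myelin basic protein, Mbp, at 5.54, 4.78 and 4.05. The synaptic gene Snap25 was at 2.37 ± 0.614 and the neuronal tubulin Tubb3 at 2.38 ± 0.380. Over all genes with a mean of 5 FPKM or more, 50 (0.673%) differed by more than 2 times between their highest and lowest library. Among list members with a mean of 1 FPKM or more, 32 of 885 did so, 23 of them from the lists of other cells and tissues. Those lists, the odorant-binding one included, were chosen with earlier results of these data known, so the 23 cannot show where differences mostly lay. Of the 32, 17 peaked in WT 2, 14 in WT 3 and 1 in WT 1. What brought these transcripts into the libraries was not tested, and genes below that peaked with such a list are given with their 3 values.

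**Figure D3:**
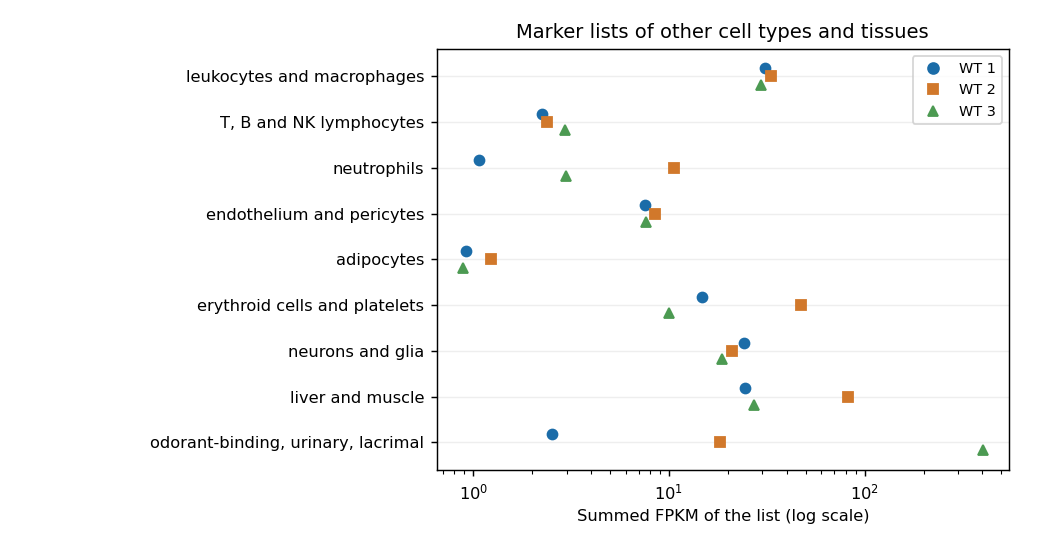
Summed FPKM, on a log axis, of each marker list of other cell types and tissues in WT 1 (circles), WT 2 (squares) and WT 3 (triangles). The odorant-binding list runs from 2.53 in WT 1 to 402 in WT 3, the erythroid and the liver and muscle lists are highest in WT 2, and the leukocyte and endothelial lists are close together.

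Receptor tyrosine kinases were expressed about as often as protein-coding genes in general, with 31 of 56 (55.4%) beside 55.9%. Of the list, 17 were under 0.1 FPKM in each library, and Axl alone held 37.4% of the summed level. Of its kin, which bind the ligands Gas6 and Pros1, Axl exceeded Tyro3, at a ratio of 35.7 ± 0.542. Epha2, an ephrin-A receptor, was at 169, 174 and 165 FPKM, and exceeded Epha4, at a ratio of 41.2 ± 0.620. Met, the receptor of hepatocyte growth factor, was at 42.1, 41.6 and 40.1 FPKM and the WNT co-receptor Ptk7 at 37.3 ± 0.494.

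In the EGF receptor family, Erbb2 was the highest, at 29.7, 31.6 and 31.3 FPKM. Egfr was at 1.27, 1.21 and 1.247, so Erbb2 exceeded it, at a ratio of 24.9 ± 1.33, and Erbb2 exceeded Erbb3, at a ratio of 2.82 ± 0.0874. Erbb4 was at 0.0221, 0.0120 and 0.0113 FPKM. The insulin receptor-related gene Insrr and the vessel receptors Kdr and Flt4 were at 0.00553, 0.0250 and 0.0211.

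Nuclear receptors were low as a class. They had 21 of 45 members expressed (46.7%) and 4 with a mean of 10 FPKM or more. The highest was the oxysterol receptor Nr1h2 at 15.6 ± 0.651 FPKM, followed by the retinoid partner Rxrb at 14.1 ± 0.402, the metabolic regulator Esrra at 11.6 ± 0.105 and the fatty acid sensor Ppard at 10.6 ± 0.280. Thrb, Rarb, Ppara and Pparg, receptors for thyroid hormone, retinoic acid and fatty acids, were at 0.0339, 0.0119, 0.0165 and 0.0319. Esr1 and Pgr, given above, were under 1 FPKM in each library.

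TGF-beta, WNT and NOTCH receptors were expressed in larger part. The TGF-beta and BMP list had 9 of 14 expressed, with the co-receptor Eng at 29.0 ± 1.07 FPKM, Tgfbr2 at 27.6 ± 0.323, and the BMP receptors Bmpr1a and Acvr1 at 16.2 ± 0.961 and 16.1 ± 0.591; Acvr1c, Acvrl1 and Bmpr1b were at 0.0303, 0.0631 and 0.0502. The WNT, NOTCH and Hedgehog list had 18 of 24 expressed (75%). The WNT receptor Fzd6 led at 57.0, 54.4 and 51.98 FPKM, with the WNT co-receptor Lrp5 at 39.7 ± 1.71, Notch2 at 23.3 ± 0.254 and Fzd7 at 17.0 ± 0.574. Notch2 exceeded Notch1, at a ratio of 8.60 ± 0.226. The stem cell marker Lgr5 was at 0.0178, 0.00960 and 0.0409 FPKM, Fzd8 and Notch4 were at 0.0346 and 0.0855, and Fzd10 was at 0, which limits it to 0.0145 FPKM.

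Transcripts of immune receptors came mostly from a few genes. Tnfrsf12a, the receptor of TWEAK, was at 315, 283 and 313 FPKM and held 68.3% of the summed TNF receptor list, of which 12 of 27 were expressed. The lymphotoxin receptor Ltbr was at 29.2 ± 0.265, and the decoy TRAIL receptor Tnfrsf22 and the TNF receptor Tnfrsf1a were at 22.2 ± 1.01 and 18.4 ± 0.432. The lymphocyte members Tnfrsf8 and Tnfrsf13b and the neurotrophin receptor Ngfr were at 0.00914, 0.00548 and 0.0419, and Tnfrsf17 was at 0 (limit 0.0578 FPKM).

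Among cytokine receptors, 20 of 45 (44.4%) were expressed. The interferon-gamma receptor chain Ifngr1 was at 26.4, 26.1 and 26.0 FPKM and exceeded its partner Ifngr2, at a ratio of 6.24 ± 0.392. The shared IL-6 family chain Il6st was at 20.03 ± 1.02, and the IL-4 and IL-13 receptor chains Il4ra and Il13ra1 were at 14.8 ± 0.237 and 14.9 ± 0.446. The lymphocyte chains Il2rb and Il10ra and the decoy Il1r2 were at 0.0111, 0.0537 and 0.0172, and Il2ra was at 0 (limit 0.00825 FPKM).

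Chemokine receptors had the smallest share expressed of the receptor lists, at 14.3% (3 of 21), and the scavenging receptor Ackr3, at 48.0, 49.6 and 48.7 FPKM, held 89.0% of their sum. Cxcr3 was at 3.45, 4.16 and 3.80, Ccr10 at 1.19, 1.17 and 1.351, and Ackr1 at 0.289. The leukocyte receptors Ccr1 and Ccr2 were at 0.0113 and 0.00225, and Ccr4 was at 0 (limit 0.0152 FPKM). Of pattern recognition receptors, 6 of 21 were expressed. The double-stranded RNA receptor Tlr3 led at 12.6, 12.2 and 12.1 FPKM, the DNA sensor Cgas was at 6.02 ± 0.128, Tlr2 at 4.83 ± 0.0926 and the RNA sensor Ddx58 at 4.22 ± 0.226. The endosomal receptors Tlr7, Tlr8 and Tlr9 were at 0.0307, 0.00891 and 0.0224, and Tlr12 was at 0 (limit 0.0148 FPKM).

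Of 50 G-protein coupled receptors for small mediators, 11 (22%) were expressed and 23 were under 0.1 FPKM in each library. The retinoic acid-inducible orphan receptor Gprc5a was at 124, 122 and 125 FPKM. The protease-activated receptors F2r and F2rl1 were at 65.7, 66.0 and 63.6 FPKM for F2r and 60.8, 61.6 and 61.4 for F2rl1, with F2r higher in 3 of 3 libraries, at a ratio of 1.06 ± 0.0243, and the bradykinin receptor Bdkrb2 was at 40.8 ± 0.434. The adenosine receptor Adora2a and the adrenergic receptor Adra1a were at 0.0614 and 0.00540, and Adora3 and Adrb3 were at 0 in each library (limits 0.0126 and 0.0140 FPKM).

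Of 26 integrin subunits, 14 (53.8%) were expressed, near the background share, and Itga3 at 712, 744 and 718 FPKM and Itgb1 at 632, 607 and 609.7 far exceeded the rest: Itga3 was 17.9 ± 0.900 times Itga6 and Itgb1 was 11.995 ± 0.542 times Itgb4. Itgb5, a vitronectin receptor chain, was at 44.8 ± 0.445. The chains Itga4 and Itga9 and the leukocyte chains Itgad and Itgal were at 0.0156, 0.00815, 0.00728 and 0.00699. The MHC class I heavy chain H2-D1 was at 198, 195 and 202 FPKM and H2-K1 at 92.3, 89.7 and 89.3. Class I genes can be near-identical in parts, but the sequence shared with other genes was not computed for H2-D1 or H2-K1. How well reads of a BALB/c line match the reference at these genes was not tested either. Both class I levels are therefore reported as uncertain. The class II genes H2-Aa and H2-Eb1, named after their values were seen, were at 0.0120, 0.0519 and 0.110 for H2-Aa and 0.0469, 0.127 and 0.312 for H2-Eb1, highest in WT 3. Of the other surface ligands, Cd47, which signals against phagocytosis, was at 32.6 ± 2.35. The immune checkpoint ligands Pdcd1lg2 and Vtcn1 and the costimulators Cd80 and Cd86 were at 0.00793, 0.0300, 0.0424 and 0.0216. Cd274, the PD-L1 gene, named after its values were seen, was at 0.541, 0.748 and 0.631 FPKM.

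Of 44 cytokines and colony-stimulating factors, 21 (47.7%) were expressed, and 4 were at 100 FPKM or more in each library; 8 listed genes were not analysed here. After Mif, the highest was Spp1, the matrix cytokine osteopontin, at 380.0, 379 and 409.6 FPKM. Csf3, which encodes the neutrophil growth factor G-CSF, was at 230.0, 220.0 and 223 FPKM, and Il24, an IL-20 family cytokine, at 142, 143 and 144. All 3 were even over the libraries.

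The colony-stimulating factors followed a clear order. Csf3 exceeded Csf1, the macrophage factor, which was at 78.3, 80.3 and 74.9 FPKM, and Csf1 exceeded Csf2, the GM-CSF gene, at 4.55, 4.496 and 4.55. Csf3 was 49.5 ± 0.843 times and Csf1 17.2 ± 0.692 times Csf2, and the order held in 3 of 3 libraries. The interleukin genes Il1rn, Il2, Il3 and Il5 were at 0.0378, 0.0133, 0.0508 and 0.0206 FPKM. Il6, named after its values were seen, was at 0.0188, 0.0203 and 0.0384 FPKM, 4 reads over the 3 libraries.

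Cxcl5 and Cxcl1, which attract neutrophils, were the highest chemokine transcripts. Of 34 chemokines, 11 (32.4%) were expressed. Cxcl5 was at 495, 441 and 453 FPKM, highest in WT 1, and held 55.3% of the family's sum, and Cxcl1 was at 239, 224 and 229.7. Cxcl5 exceeded Cxcl1, at a ratio of 2.00 ± 0.0608 in 3 of 3 libraries. The membrane-bound chemokine Cxcl16 was at 68.7 ± 0.836 and Cxcl3 at 34.9 ± 2.85. Cxcl2, a further neutrophil attractant named after its values were seen, was at 2.29, 2.33 and 1.98 FPKM. Ccl4 and Ccl12, which attract monocytes and lymphocytes, were at 0.0484 and 0.0595, and Ccl11 and Ccl19 were at 0 in each library (limits 0.0435 and 0.0543 FPKM).

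For several ligands the receptor transcripts were low in the same libraries. These receptors, and the ligands Lif and Gas6, were named after their values were seen. The G-CSF receptor gene Csf3r was at 0.139, 0.0546 and 0.0775 FPKM. Cxcr2, the shared receptor of CXC chemokines that attract neutrophils, was at 0, 0 and 0.0306. The macrophage factor receptor Csf1r was at 1.46, 1.42 and 1.55. Csf1 exceeded Csf1r, at a ratio of 52.9 ± 4.24, and Areg exceeded its receptor Egfr, at a ratio of 51.7 ± 0.236. The leukemia inhibitory factor gene Lif was at 47.8 ± 1.01 FPKM and its receptor Lifr at 0.218 ± 0.0344, although the partner chain Il6st was at 20.03 ± 1.02. Axl ran the other way, at 312 ± 5.58 FPKM beside 0.484 ± 0.158 for its ligand Gas6. A transcript level says nothing of the protein at the membrane, which was not measured here.

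**Figure D4:**
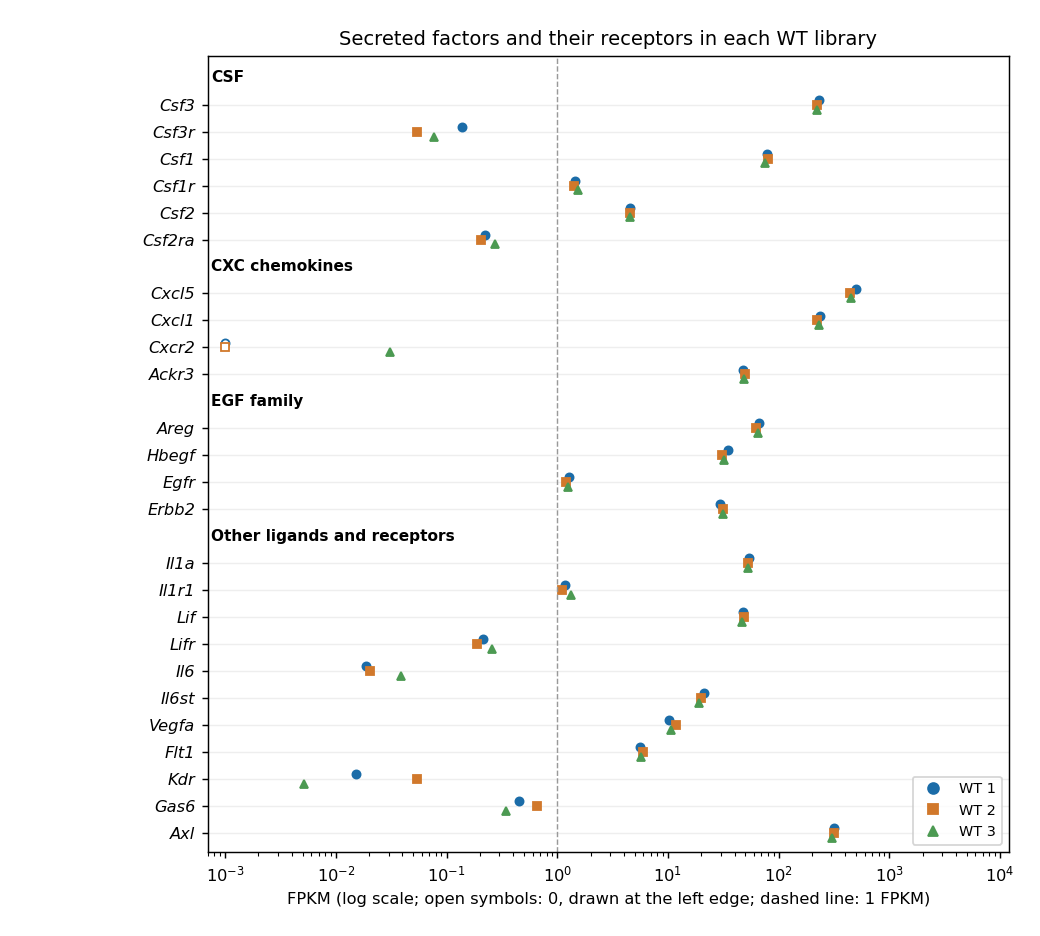
FPKM of secreted factors and receptors on a log axis in WT 1 (circles), WT 2 (squares) and WT 3 (triangles); open symbols at the left edge stand for 0. Csf3, Cxcl5 and Cxcl1 lie above 100 FPKM in each library, whereas Csf3r and Cxcr2 lie below 1.

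Growth factors and morphogens had 39 of 90 members expressed (43.3%). The matricellular genes Ccn1 and Ccn2, known targets of YAP and TEAD, were at 695, 666 and 663 FPKM for Ccn1 and 198, 195 and 190.0 for Ccn2, and Ccn1 exceeded Ccn2, at a ratio of 3.48 ± 0.0563. Ccn1 also had the highest CpG content of the printed promoters, with 20 CpGs (ratio 0.823) and the letters TATAAA in its window (chr3:145649936-145650235, - strand, RefSeq on GRCm38.p6, CpGs in capitals), shown as an abundant gene that combines both features.
Ccn1: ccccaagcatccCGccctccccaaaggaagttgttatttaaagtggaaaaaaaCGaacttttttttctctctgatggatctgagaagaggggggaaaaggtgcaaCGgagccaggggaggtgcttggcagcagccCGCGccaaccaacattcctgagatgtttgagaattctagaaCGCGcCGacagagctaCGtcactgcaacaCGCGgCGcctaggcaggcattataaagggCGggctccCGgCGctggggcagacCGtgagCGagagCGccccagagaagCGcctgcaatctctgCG
Grn, which encodes progranulin, was at 124 ± 0.869 FPKM, and the EGF family ligand Areg was at 65.8, 62.2 and 64.6. Areg exceeded Hbegf, of the same family, at a ratio of 1.98 ± 0.0691. Vegfa, the vessel growth factor, was at 10.3, 11.7 and 10.6 FPKM. The related Vegfc and Vegfb had higher means, of 29.3 and 25.4 FPKM, and Pdgfa had a mean of 11.2. These 3 were named after their values were seen. The related Vegfd and Pdgfd, the EGF family gene Ereg and Fgf9 were at 0.0528, 0.00974, 0.0191 and 0.0203.

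Matrix and protease genes were high in part. Of 82 matrix genes, 42 (51.2%) were expressed and 11 were at 100 FPKM or more in each library. After Fn1 and Spp1, Fbln2, a basement membrane fibulin, was at 281, 299 and 276 FPKM. The laminin chains of other tissues Lama1, Lama2, Lama4 and Lamc3 were at 0.00317, 0.0143, 0.0305 and 0.0367. The fibrillar collagen Col1a1 was at 0.590, 3.39 and 10.4 FPKM and was highest in WT 3, the library with the highest odorant-binding sum; that sum's part in it was not tested, and the gene was named after its values were seen.

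Of 61 proteases and inhibitors, 45 (73.8%) were expressed. The lysosomal proteases Ctsl and Ctsz were at 553, 514 and 547 FPKM for Ctsl and 388, 374 and 383 for Ctsz, the cysteine protease inhibitor Cst3 at 231 ± 2.26 and the collagen chaperone Serpinh1 at 231 ± 1.83. The macrophage elastase Mmp12, the membrane protease Tmprss2 and the stefin Stfa2 were at 0.0464, 0.0434 and 0.0330. The metalloprotease Mmp14 exceeded Mmp9, at a ratio of 2.15 ± 0.0960. In the list of S100 proteins, annexins and galectins, 20 of 35 were expressed, and after Lgals1, S100a6 and S100a11 the membrane-binding Anxa2 was at 262, 254 and 263 FPKM. Lgals1 held 66.4% of that list's sum, and Anxa10, Anxa13 and Lgals12 were at 0.0138, 0.0233 and 0.0118.

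At several steps of glycolysis nearly all of the transcript came from a single isozyme. The list had 29 of 45 members expressed and 8 at 100 FPKM or more in each library. Pkm, pyruvate kinase of non-liver tissue, was at 503, 539 and 553 FPKM and Pklr, the liver form, at 0.00949. Ldha, the muscle-type lactate dehydrogenase, was at 422, 411 and 441 FPKM and exceeded Ldhb, at a ratio of 116 ± 6.21, with Ldhc at 0.00961. Pgk1 was at 334 ± 12.1 and its testis form Pgk2 at 0.00956. Aldoa was at 232 ± 8.63, 47.1 ± 8.13 times Aldoc.

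At other steps several isozymes were expressed. Eno1, of whose 50-base words 58.1% were shared, was at 179.9 ± 7.04 FPKM and exceeded the muscle enolase Eno3, at a ratio of 3.44 ± 0.0204, and Eno3 exceeded the neuronal form Eno2, at a ratio of 9.53 ± 0.707. Pfkl was 4.41 ± 0.248 times Pfkm and 7.75 ± 0.373 times Pfkp. Hk2 and Hk1, which trap glucose in the cell, were nearly equal, at 17.0, 17.2 and 18.6 FPKM for Hk2 and 15.4, 16.4 and 16.3 for Hk1, with Hk2 higher in 3 of 3 libraries. Hk3 was at 0.0292 FPKM. The lactate exporter Slc16a1 was at 139.8, 128 and 133 FPKM, while Slc16a3, an exporter of hypoxic cells, was at 0.0600, 0.120 and 0.0964, with 31 reads in all. The glucose transporter Slc2a1 was at 77.5, 79.6 and 78.8, with Slc2a3 at 0.169, Slc2a4 at 0.574 and Slc2a2 at 0.00571. Pgam2, the muscle phosphoglycerate mutase, was at 2.01, 6.74 and 3.50 FPKM, highest in WT 2 like the muscle list; the list's part in it was not tested.

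Gapdh was lower than the highest glycolytic isozymes but above the list's median of 3.77 FPKM. It was at 27.4, 27.5 and 27.5 FPKM, rank 1846, and Pgk1, the next enzyme of the pathway, exceeded it, at a ratio of 12.1 ± 0.423. A Gapdh transcript shares 90.4% of its 50-base words with annotated transcripts of 222 other genes, beside 68.0% with 5 genes for Pgk1, 34.4% with 8 for Pkm and 17.1% with 14 for Ldha. Gapdh is therefore reported as uncertain, and how its reads were assigned was not tested.

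**Figure D5:**
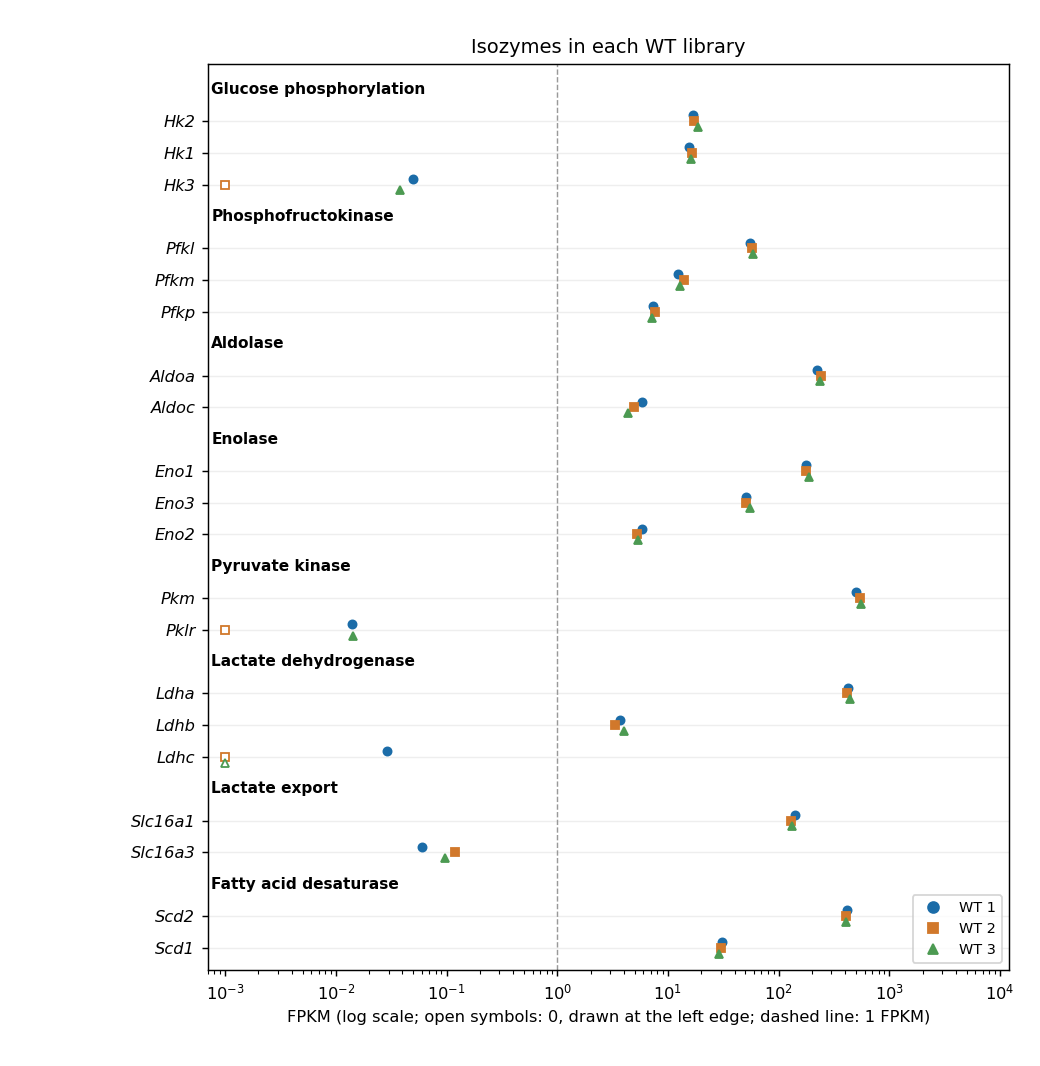
FPKM of isozymes and related transporters on a log axis in WT 1 (circles), WT 2 (squares) and WT 3 (triangles); open symbols at the left edge stand for 0. Pkm and Ldha lie above 100 FPKM and Pklr below 0.1, whereas Hk2 and Hk1 nearly coincide.

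Mitochondrial and biosynthetic pathways were broadly expressed. The tricarboxylic acid cycle list had 31 of 34 members expressed (91.2%), led by the malate dehydrogenase Mdh2 at 98.0 ± 4.81 FPKM, the succinate dehydrogenase anchor Sdhd at 68.7 ± 1.59, the isocitrate dehydrogenase subunit Idh3g at 57.9 ± 1.84 and citrate synthase, Cs, at 55.5 ± 1.09. Mdh2 was 2.68 ± 0.194 times the cytosolic Mdh1, and Idh2 was 3.12 ± 0.283 times Idh1. Pdk3, a kinase that turns off pyruvate entry, exceeded Pdk1, at a ratio of 2.22 ± 0.122. All 35 nucleotide and one-carbon enzymes with values were expressed, with a median of 22.5 FPKM, led by the adenine salvage enzyme Aprt at 127 ± 3.99, the guanine nucleotide enzyme Impdh2 at 79.8 ± 1.06, the ribonucleotide reductase subunit Rrm2 at 69.3 ± 3.43 and the pentose pathway enzyme Tkt at 62.1 ± 0.696. Impdh2 was 4.81 ± 0.233 times Impdh1.

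Of 49 amino acid enzymes, 35 (71.4%) were expressed. Phgdh, the first enzyme of serine synthesis, was at 100.4, 109 and 117 FPKM, the polyamine enzyme Odc1 at 98.0 ± 4.06, the methionine enzyme Mat2a at 93.1 ± 1.03 and the mitochondrial Shmt2 at 89.0 ± 3.16. The later enzymes of serine synthesis, Psat1 and Psph, named after their values were seen, were at 50.8 ± 1.02 and 5.504 ± 0.290. Shmt2 was 4.46 ± 0.159 times Shmt1. The glycine-cleaving Gldc, Cbs, the liver enzyme Mat1a and the tryptophan-degrading Ido1 were at 0.0642, 0.0376, 0.0181 and 0.0180.

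Of 23 amino acid transporters, 14 were expressed, with the shared heavy chain Slc3a2 at 120.0, 121 and 119.7 FPKM, its leucine-carrying partner Slc7a5 at 92.2 ± 1.80, the glutamine carrier Slc1a5 at 71.0 ± 0.707 and Slc38a2 at 64.8 ± 1.49. The cystine-carrying partner Slc7a11, named after its values were seen, was at 0.330, 0.311 and 0.325 FPKM (286 reads). Slc7a2, Slc38a5 and Slc43a1 were at 0.0414, 0.0214 and 0.00816.

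Scd2 led the fatty acid list. In the fatty acid list 34 of 48 were expressed (70.8%). Scd2, a stearoyl-CoA desaturase, was at 411, 404 and 402 FPKM and Scd1, the liver and fat form, at 30.8, 30.0 and 28.7, so Scd2 was 13.6 ± 0.362 times Scd1. The polyunsaturated desaturase Fads2 was at 122 ± 0.604, the fatty acid synthase Fasn at 76.9 ± 3.25 and the elongase Elovl5 at 76.6 ± 1.28, while the elongases Elovl2 and Elovl3 and Plin1 were at 0.0319, 0.0160 and 0.00688. In the cholesterol list 26 of 32 (81.2%) were expressed, with the synthesis enzymes Cyp51 and Msmo1 at 85.9 ± 2.34 and 63.4 ± 1.60. The steroid enzyme Cyp11a1 was at 0.0129, and the estrogen-making aromatase gene Cyp19a1 was at 0 (limit 0.0104 FPKM).

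Iron and detoxification genes were led by storage and peroxidase genes. The ferritin heavy chain Fth1 was at 438, 445 and 454 FPKM and held 48.0% of its list's sum, the transferrin receptor Tfrc was at 259.8, 249.9 and 245, and the metallothionein Mt1 at 34.8 ± 1.36. The light chain Ftl1 was at 90.6 ± 6.56, but 90.6% of its 50-base words also stood in transcripts of 17 other genes, so its level is uncertain. In that list 15 of 21 were expressed, and the liver receptor Tfr2 was at 0.0215. Of 48 detoxification genes 26 were expressed, with the glutathione peroxidases Gpx1, Gpx8 and Gpx4 at 154 ± 13.2, 113 ± 3.89 and 98.2 ± 7.02 and the transferase Gstp1 at 67.4 ± 4.71. The transferases Gsta3, Gstm6 and Gstp3 were at 0.0545, 0.0320 and 0.0352, and Gstm3 was at 0 (limit 0.0359 FPKM).

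Transcription factor families differed in how much of each was expressed. The share ran from 25.8% of SOX and T-box genes (8 of 31) to 70.8% of ETS genes (17 of 24). Over all 427 factors with values, 217 were expressed, 3 were at 100 FPKM or more in each library, and 121 were under 0.1 in each. The highest was Tfdp1, the partner of E2F cell cycle factors, at 123, 132 and 127 FPKM, with 40.4% of its 50-base words shared with 1 other gene. Myc, the growth regulator, was at 111, 118 and 109 FPKM, highest in WT 2, and the WNT effector Ctnnb1 at 105, 106 and 107. The ranges of Myc and Ctnnb1 did not overlap.

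The mixed list of NF-kB, STAT, IRF, SMAD, TEAD and other factors had 67 of 100 expressed (67%). The chromatin protein Hmga1 was at 95.1, 102 and 99.4 FPKM, but 83.2% of its 50-base words were shared with transcripts of 2 other genes. The cell cycle factor E2f4 was at 66.9, 72.1 and 71.4 FPKM. Trp53, the p53 gene, was at 35.2, 35.7 and 34.8 FPKM. Nfatc4, the lymphocyte regulator Irf4 and Runx3 were at 0.0672, 0.00951 and 0.00657, and Stat4 was at 0 (limit 0.0122 FPKM).

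Stress and growth factors led the AP-1, ATF and CREB and the helix-loop-helix families. The first had 32 of 49 expressed, with the amino acid stress factor Atf4 at 74.2, 75.2 and 76.5 FPKM, the proteasome regulator Nfe2l1 at 69.4 ± 1.31, Atf6b at 61.8 ± 2.41 and Junb at 53.0 ± 1.56. Junb was 3.62 ± 0.139 times Jun. The immune cell factors Batf and Batf2, Maf and the retinal factor Nrl were at 0.0111, 0.0379, 0.0477 and 0.00273. The helix-loop-helix list had 29 of 51 expressed; after Myc came the lipid regulators Srebf1 and Srebf2 at 51.7 ± 1.18 and 33.6 ± 0.862 and Tcf3 at 30.1 ± 0.829. Myc was 6.47 ± 0.172 times its partner Max. Mycn, Mlxipl, Hif3a and Npas2 were at 0.0236, 0.0431, 0.0258 and 0.0358.

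Among ETS factors Elk3 was at 38.4, 37.3 and 36.3 FPKM and Etv4 at 26.0, 27.8 and 27.2, followed by Ets2 and Erf at 14.7 ± 0.288 and 14.7 ± 0.354, whose ranges overlap. Elf5 and the blood and vessel factors Erg, Fli1 and Spi1 were at 0.00787, 0.00948, 0.0232 and 0.0354. Forkhead genes had 14 of 34 expressed, led by the mitotic regulator Foxm1 at 31.0, 32.3 and 30.9, with Foxk2, Foxp4 and Foxk1 at 26.1 ± 0.429, 18.1 ± 0.717 and 6.44 ± 0.351. Foxa2 and Foxd2 were at 0.00641 and 0.0909, and Foxa3 and Foxd1 at 0 (limits 0.0231 and 0.00930 FPKM). Of SOX and T-box genes, Sox4 was at 16.8, 14.9 and 16.2 FPKM and Sox9 at 11.6, 12.6 and 11.9, with Mga at 4.57 ± 0.0629 and Tbx15 at 3.44 ± 0.206; Sox1, Sox5, Sox6 and Sox7 were at 0.0290, 0.0298, 0.0118 and 0.0189. In the GATA, KLF and SP list 23 of 46 were expressed, with Klf6 at 29.5, 28.2 and 28.6, Yy1 at 19.9 ± 0.497, the insulator protein Ctcf at 17.6 ± 0.385 and Klf10 at 12.4 ± 0.210; Klf17 and Sp5 were at 0.0133 and 0.0152, and Gata1 and Gata6 at 0 (limits 0.0193 and 0.00724 FPKM).

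Among Hox genes with values, expression at 1 FPKM or more in each library was limited to the Hoxa cluster. Of the 30 with values, 8 were expressed, and all 8 lay in Hoxa (8 of 11). Values were held for 8 Hoxb, 7 Hoxc and 4 Hoxd genes, and 9 listed Hox genes were not analysed here. Hoxa5 was at 32.2, 31.2 and 30.6 FPKM and Hoxa6 at 21.8, 21.7 and 22.4, followed by Hoxa3 at 4.43 ± 0.118 and Hoxa10 at 4.09 ± 0.0767. Hoxa11 was at 0 (limit 0.0206 FPKM) and Hoxa13 at 0.0200. The highest Hoxb gene, Hoxb6, was at 0.0473 FPKM, the highest Hoxc gene, Hoxc6, at 0.150 and the highest Hoxd gene, Hoxd8, at 0.336 (named after their values were seen). Hoxb2 and Hoxb3 were at 0 (limits 0.0135 and 0.0111 FPKM). Outside the clusters, 19 of 62 (30.6%) were expressed. Irx2 was at 35.8, 36.0 and 34.5 FPKM, Tgif1, a corepressor of TGF-beta signals, at 20.98 ± 0.273, Pbx2, a cofactor of Hox proteins, at 8.29 ± 0.291 and Irx1 at 5.65 ± 0.431. Pou2f3, Pou3f1, the pluripotency factor Pou5f1 and Msx1 were at 0.00492, 0.0444, 0.00675 and 0.0261.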

How the data were processed

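RNA of WT 4T1 cells was extracted with Trizol, made into libraries with the NEBNext Ultra kit and sequenced on an Illumina HiSeq, per the labels' protocols. The deposited files give 1 value per Ensembl gene identifier and library. Neither labels nor headers state a unit, so FPKM was taken from the values that the authors deposited: they are fractional, their sums differ between libraries (329837 to 335769.8), and 98.2% of them in each library came out as whole reads, within 0.01 read, once multiplied by annotated exon length and a common total per library. Bowtie2 2.2.3, HISAT2 2, HTSeq 0.6.0 and the build mm8 are named in the submitters' processing notes with no role; mm8 is older than some identifiers. Whether counting used strand is not given in the sources used here, so overlapping and antisense genes cannot be told apart.

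Identifiers were matched to symbols, biotypes and merged exon lengths of GENCODE M21 (30190 of 30803). Where a symbol had several identifiers, that with the higher mean was used. Means, SDs, ranks, counts of list members at 1, 100 and under 0.1 FPKM, ratios, shared 50-base words and promoter features were computed with Python 3.11.15, pandas 2.3.3 and numpy 2.4.6 and drawn with matplotlib 3.10.9. The word search took 1 protein-coding transcript per gene and compared it with all transcripts of other genes. The planned design has no comparison between groups, so no test was run. The limit of a gene at 0 is the level that 3 reads over the 3 libraries would give; it covers counting error only. The recovery of reads was tried on simulated data made with the same exon lengths, totals and formula. That simulation checks the calculation only, and it cannot show that the unit is FPKM or that the lengths are right.

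Genes and lists were chosen with earlier results of these data known. Named genes were the 20 highest nuclear genes with a symbol, leaving out ribosomal protein genes, predicted Gm genes, Rik clones and pseudogenes, and the 10 highest of any kind; the 4 highest members of each list and up to 4, in list order, at 0 or under 0.1 FPKM in each library; a set of defining markers; isozyme sets; and the 15 genes with the largest ratio between libraries. Some genes that these rules name are not reported here. Alternatives were other thresholds, pseudocounts and scalings, and leaving out each library.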

Additional observations from a re-analysis of the deposited data

How the results depend on the processing

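Leaving out 1 library raised the number of genes at 0 in every remaining library from 2490 to between 3878 and 3952, as fewer samples must be 0, and counting only protein-coding genes gave 681. Rescaling each library to the same sum (TPM scale) raised the number of genes at 100 or more in each library from 374 to 1434, and to 1844 when the sum was taken over nuclear genes, because 1 FPKM equals 3.00 TPM here. The 10 most abundant nuclear genes held 7.24% of the nuclear sum, where the 10 most abundant of all genes held 22.7% of the whole. The median SD of log2(FPKM + 1) between libraries, over genes with a mean of 1 FPKM or more, was 0.0538, became 0.0617 with a pseudocount of 0.1 and 0.0521 over all genes above 0, and was 0.0421 to 0.0460 with 1 library left out. The median promoter CpG ratio of expressed genes moved from 0.795 to 0.819 for a mean of 10 FPKM or more and to 0.703 for genes of the lists; that of genes at 0 moved from 0.190 to 0.235 for genes of the lists. The number of expressed genes was between 10044 and 14699 over all alternatives, beside 11768. Of the 48 lists, 3 had a count of expressed members outside 1.5 times at 0.5 FPKM, 6 at 2 FPKM, 2 without WT 1 and 0 without WT 2 or WT 3. Of the genes named in the text, 273 with a mean of 1 FPKM or more were checked by leaving out 1 library. Of these, 27 had a mean that moved by over 1.5 times. Without WT 2 they were Krt5, Krt13, Ly6d, Bpifa1, Cyp2f2, Ltf, Hbb-bs, Hba-a1, Hbb-bt, Acta1, Ckm, Mb and mt-Nd4l. Without WT 3 they were Obp1a, Obp1b, Obp2a, Obp2b, Mup4, Lcn11, Bpifb9b, 5430402E10Rik, Gm14743, Gm14744, Gm6619, Gm17720, Igkc and Col1a1. Of 157 named genes with a mean above 0 and under 1 FPKM, 58 did so. Genes under about 0.1 FPKM rest on few reads, so their order was not detectable at this depth. No paired analysis was possible because a single group was described and no groups were compared.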

Other observations

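The genes below were chosen after their values were seen, and each is given as a value in FPKM. The proliferation markers Mki67, a nuclear protein of cycling cells, and Top2a, the mitotic topoisomerase, were at 90.6 ± 2.71 and 79.8 ± 0.879 (SD, n = 3). Ccnd1, the cyclin of G1 phase, was at 112 ± 1.70 and Cdk1, the mitotic kinase, at 27.4 ± 0.279. The cell cycle inhibitor Cdkn1a, a target of p53, was at 1.67, 2.14 and 2.26 in WT 1, WT 2 and WT 3, and Cdkn2b was at 0, with a limit of 0.0339. Tert, the telomerase subunit, was at 2.86 ± 0.0867. The maintenance methylation genes Dnmt1 and Uhrf1 were at 61.2 ± 1.33 and 61.3 ± 1.29, above the 1.86 ± 0.0386 of the de novo methyltransferase Dnmt3a in each library.

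Prostaglandin genes were uneven. Ptgs2, the inducible cyclooxygenase, was at 304, 290.0 and 280.1, while Ptgs1, the constitutive form, was at 5.63, 5.91 and 5.70, so the ranges were far apart. Hpgd, which degrades prostaglandins, was at 0.0271, 0.0585 and 0.0554. Ptges3, a prostaglandin E synthase and chaperone partner, was at 55.8 ± 3.64.

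The fetal RNA-binding genes Igf2bp1 and Igf2bp2 were at 7.18 ± 0.207 and 13.6 ± 0.193, while Igf2bp3 and Lin28b were at 0.106 ± 0.0159 and 0.193 ± 0.0144. Among long noncoding RNAs, Malat1 was at 164 ± 10.2, Neat1 at 87.1 ± 1.403 and Gas5, a host of small nucleolar RNAs, at 189 ± 4.81. The mitochondrial gene mt-Nd4l was at 154, 653 and 229.5, with WT 2 apart from the others; this gene overlaps mt-Nd4, and how reads were divided was not tested.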
